A study of Mus musculus with 2 samples.

Results

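Axon guidance genes encode the semaphorins and their plexin receptors, the Slit ligands and Robo receptors, the netrins and UNC5 receptors, and the ephrins and Eph receptors. Genes of these families were taken by the start of their symbol (Sema3 to Sema7, Plxna to Plxnd, Slit, Robo, Ntn, Unc5, Epha, Ephb, Efna and Efnb followed by a number where the family uses one). The rule found 72 genes among 27998 in the deposited tables, and the 48 with at least 50 unique molecular identifiers (UMIs, counted transcripts) over both libraries are described here. Nuclear RNA was sequenced by a droplet method that reads the 3' end of transcripts, from livers of C57BL/6 mice, 12 weeks old, taken 48 h after PHx (partial hepatectomy, the removal of part of the liver that sets off regrowth). One group was Sox9HKO (library HKO) and the other Sox9f/f (library WT), whose Sox9 alleles carry loxP sites. The labels do not spell out HKO, do not say which Cre line or which cells delete Sox9, and do not say which part of the gene is lost. There was 1 library per group and no statement of how many mice it held, so differences between HKO and WT below are unreplicated, without any test.

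Guidance genes were named for steering growing axons, and the same ligands and receptors act between cells of many tissues. Semaphorins signal through plexins, in part with neuropilin co-receptors. Slits signal through Robo receptors, and netrins through UNC5 receptors and DCC. Ephrins are bound to the cell surface, so that ephrin and Eph receptor signal between touching cells, in both directions. In vessels, Ephb4 is known as a venous and Efnb2 as an arterial gene, and Robo4 as an endothelial member of its family.

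The HKO library held 14912 barcodes and 61123904 UMIs and the WT library 14701 barcodes and 64609301 UMIs, with medians of 3286 and 3430 UMIs per barcode. Members gave 104615 UMIs in HKO (0.171% of all) and 93836 in WT (0.145%). The 2 libraries shared 70 barcode sequences. Sox9 was at 5.98 CPM (UMIs scaled so that the class sums to 1e+06) in hepatocyte-like nuclei of HKO (95% interval 5.20 to 6.85) and at 11.3 CPM in WT (10.4 to 12.3). It was at 5.95 and 8.54 CPM in endothelial-like nuclei, and a 3' tag outside the deleted part checks nothing. All intervals are exact 95% intervals of counts and cover counting error only. Where values come as a pair, HKO is given first and WT second.

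Classes of nuclei were rebuilt by clustering without the members and named from marker genes. Hepatocyte-like nuclei numbered 7961 in HKO and 10894 in WT, endothelial-like 2344 and 1133, macrophage-like 1784 and 1060, stellate-like 1147 and 645, and T/NK-like 308 and 108. In each of these classes different clusters held most nuclei of HKO and of WT. Median depth was 3928 and 3529 UMIs in hepatocyte-like nuclei but 2065.5 and 3268 UMIs in endothelial-like nuclei. The median mitochondrial share in hepatocyte-like nuclei was 0.0655% and 0.298%. The part of these gaps in the ratios of HKO over WT was not tested. Cholangiocyte-like nuclei numbered 125 and 32, and B-like and dendritic-like nuclei were also few. Hepatocyte RNA was present in every class. In endothelial-like nuclei the hepatocyte markers stood at a median of 88.8% (HKO) and 93.1% (WT) of their level in hepatocyte-like nuclei, over 15 markers. Conversely, endothelial markers reached a median of 4.99% and 6.35% of their endothelial-like level in hepatocyte-like nuclei, over 12 markers, and stellate markers at 2.32% and 5.64%, over 11.

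Stellate-like nuclei, the class of vitamin A storing, matrix making cells that lie beside the sinusoids, held the most guidance genes. A member was said to be led by a class where its CPM was at least 2-fold that of each other main class in both libraries. Stellate-like nuclei led 16 of the 48 members, while 3.38% of the 15003 genes with at least 50 UMIs were led by this class. Endothelial-like nuclei led 5 members (background 1.4%), macrophage-like nuclei 1 (1.95%) and T/NK-like nuclei 1 (1.37%). Hepatocyte-like nuclei led 0 members (0.0133% of all genes), and 25 members had no leading class. In the other main classes hepatocyte markers stood at medians of 78.8% (stellate-like, HKO) to 98.7% (T/NK-like, WT) of their hepatocyte-like level. The rule could therefore hardly give a gene to hepatocyte-like nuclei. Members near level over the main classes, named below, cannot be told apart from hepatocyte genes whose RNA was present in every class. Of the 17 semaphorins described, stellate-like nuclei led 6, and of the 6 EphA receptors 3. Of the 7 plexins described, 1 had a leading class, endothelial-like nuclei, and 6 had none.

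**Figure D1:**
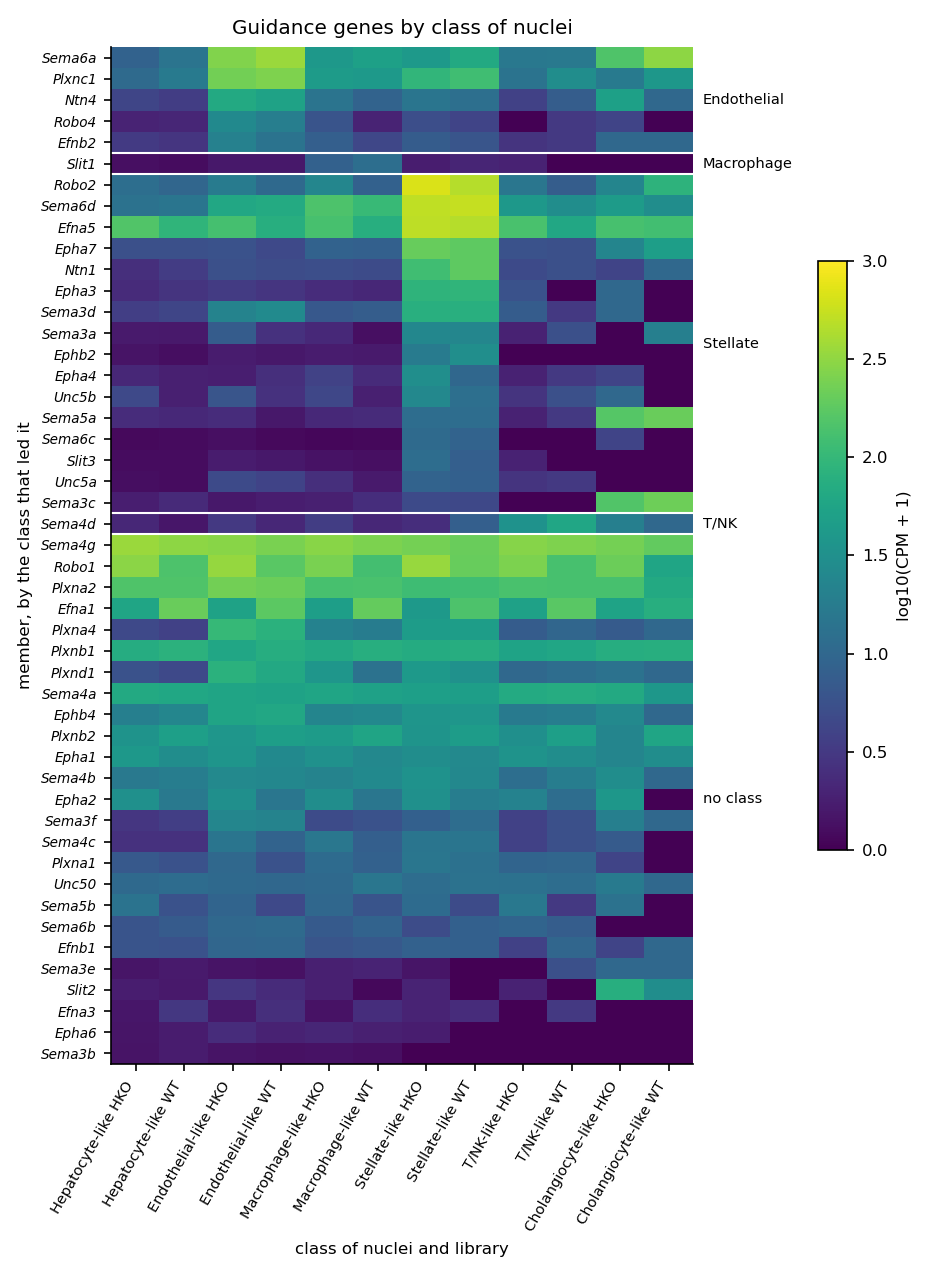
Level of the 48 members as log10(CPM + 1), by colour, in each class of nuclei (columns, HKO beside WT), with members grouped by the class that led them. The 16 members led by stellate-like nuclei are brighter in the stellate-like columns than in those of the other main classes, in both libraries. Some are at low levels even there, such as Sema3c at 3.73 and 3.51 CPM. Sema3c, Sema5a and Slit2 are brightest in the cholangiocyte-like columns.

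Among the semaphorins, Sema6d, a transmembrane ligand of class A plexins, was at 520 CPM (498 to 543) in HKO against 549 CPM (522 to 577) in WT stellate-like nuclei. Its level was far lower in every other main class, and macrophage-like nuclei came next with 145 and 105 CPM, which was 27.8% and 19.1% of the stellate-like level. Stellate markers in macrophage-like nuclei were at a median of 4.10% and 4.55% of their own level, so Sema6d there lay above that median in both libraries. The secreted class 3 semaphorins Sema3d, Sema3a and Sema3c were also led by stellate-like nuclei. Sema3d was at 77.1 and 77.8 CPM there and at 20.8 and 26.4 CPM in endothelial-like nuclei. Sema3a was at 23.4 and 23.1 CPM in stellate-like nuclei. Sema6c was at 9.95 and 8.06 CPM there, from 40 and 23 UMIs.

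Sema6a, a transmembrane semaphorin that binds plexin-A2 and plexin-A4, stood in endothelial-like nuclei at 267 CPM (256 to 278) in HKO against 349 CPM (334 to 366) in WT. The next main class, stellate-like nuclei, had 40.8 and 64.9 CPM. Plxnc1, the receptor of Sema7a, was at 229 CPM (219 to 239) and 265 CPM (252 to 280) in endothelial-like nuclei and at 92.8 and 120 CPM in stellate-like nuclei. That is 40.5% and 45.1% of the endothelial-like level, while endothelial markers in stellate-like nuclei were at a median of 16.7% and 22.4%. Its ligand gene Sema7a had 6 UMIs over both libraries and fell under the limit for description.

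The other plexins were spread more widely. Plxnd1, the receptor of Sema3e, was highest in endothelial-like nuclei at 81.9 CPM in HKO against 63.2 CPM in WT, 2.07-fold and 1.98-fold the stellate-like level. It thus missed the 2-fold rule in WT alone. Plxna4 was at 100 and 82.0 CPM in endothelial-like nuclei, 2.23-fold and 1.77-fold the stellate-like level. The antisense genes Plxna4os1, Plxna4os2 and Plxna4os3 overlap Plxna4, and the sources used here do not say whether the counting used strand. Plxna2 was highest in endothelial-like nuclei as well, at 226 and 211 CPM, but was at 148 and 147 CPM in hepatocyte-like nuclei. Plxnb1 and Plxnb2, receptors of class 4 semaphorins, differed little between the main classes, with the highest class 1.33-fold and 1.42-fold the lowest for Plxnb1 in HKO and WT and 1.43-fold and 1.26-fold for Plxnb2.

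Sema4d, the ligand of plexin-B1 and known from T cells, was led by T/NK-like nuclei, at 32.4 CPM (22.6 to 45.0) from 35 UMIs in HKO against 59.1 CPM (39.0 to 86.0) from 27 UMIs in WT. It was not restricted to them. Dendritic-like nuclei gave 76.3 CPM (48.4 to 114) from 23 UMIs in HKO, above the interval of T/NK-like nuclei, and 118 CPM (43.3 to 257) from 6 UMIs in WT, where the intervals overlap. The class 4 semaphorins Sema4g and Sema4a were near level over the main classes. Sema4g was at 350 and 307 CPM in hepatocyte-like nuclei and at 235 and 207 CPM in stellate-like nuclei, the class where it was lowest.

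In the Slit and Robo families, each Robo gene had its own pattern. Robo2, a Slit receptor, was at 683 CPM (658 to 709) in HKO against 459 CPM (434 to 484) in WT stellate-like nuclei. The next class stood at 22.7 CPM (macrophage-like, HKO) and 9.49 CPM (endothelial-like, WT). A Robo2 UMI was present in 70.3% (HKO) and 69.5% (WT) of stellate-like nuclei, against 4.62% and 3.59% of hepatocyte-like nuclei, whose median depth was greater in both libraries (3928 and 3529 UMIs, against 2261 and 3071). Robo4 was at 25.3 and 18.0 CPM in endothelial-like nuclei. Robo1 had no leading class and ranged from 250 to 343 CPM over the main classes of HKO and from 125 to 199 CPM in WT.

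The Slit ligands were scarce, with 402 UMIs over both libraries for the family of 3, and lay in different classes. Slit1 was found in macrophage-like nuclei at 7.57 CPM (5.71 to 9.86) from 55 UMIs in HKO against 11.1 CPM (8.60 to 14.1) from 67 UMIs in WT. In hepatocyte-like nuclei it had 12 UMIs in each library, 0.342 and 0.257 CPM. Slit3 was led by stellate-like nuclei at 10.9 and 7.01 CPM, from 44 and 20 UMIs. Slit2 had no leading main class and is described with the cholangiocyte-like nuclei.

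Both netrins described had a leading class, and these differed. Ntn1, the ligand of DCC and UNC5 receptors, was at 121 CPM in HKO against 178 CPM in WT stellate-like nuclei and at 4.38 CPM or lower in every other main class. Ntn4, which binds laminins in basement membranes, was at 64.6 CPM in HKO against 53.0 CPM in WT endothelial-like nuclei, 4.73-fold and 4.58-fold the stellate-like level. The receptor genes Unc5b and Unc5a were led by stellate-like nuclei, Unc5b at 24.4 CPM in HKO against 11.6 CPM in WT and Unc5a at 7.96 and 7.36 CPM. Unc5a overlaps Hk3 on the opposite strand. Unc50, which the symbol rule also takes, is a membrane protein and no netrin receptor, and its highest class was 1.27-fold the lowest in HKO and 1.58-fold in WT.

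Among ephrins and Eph receptors, Efna5, a ligand held by a lipid anchor, was at 499 CPM in HKO against 467 CPM in WT stellate-like nuclei. In hepatocyte-like nuclei it was at 153 and 89.8 CPM, 30.7% and 19.2% of the stellate-like level, above the median for stellate markers there. The receptors of class A ephrins Epha7 and Epha3 were at 198 and 178 CPM (Epha7) and 88.0 and 90.8 CPM (Epha3) in stellate-like nuclei. Neither exceeded 10 CPM in another main class. Epha4, at 29.6 and 9.12 CPM, and Ephb2, at 16.7 and 29.4 CPM, completed the Eph receptors led by stellate-like nuclei. Efnb2 was led by endothelial-like nuclei at 19.8 CPM in HKO against 12.7 CPM in WT. Its receptor gene Ephb4 was highest in the same class, at 55.8 and 62.6 CPM, with 1.55-fold and 1.72-fold the level of stellate-like nuclei. Efna1, Epha1 and Epha2 were near level within each library, with the highest main class at most 1.60-fold the lowest. Ephb4 overlaps Zan on the opposite strand.

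Cholangiocyte-like nuclei, the bile duct class, held members that the main classes hardly had, although the class was small. The share of all genes at least 2-fold over the main classes here was not counted. The values below are thus not read as a trait of guidance genes. Sema3c stood at 154 CPM (114 to 203, 49 UMIs) in HKO against 217 CPM (138 to 326, 23 UMIs) in WT, 41.2-fold and 62.0-fold the highest main class. Sema5a was at 163 CPM (122 to 214, 52 UMIs) and 208 CPM (130 to 315, 22 UMIs), 14.9-fold and 19.1-fold the highest main class. Both were counted above as led by stellate-like nuclei, where Sema3c stood at 3.73 and 3.51 CPM and Sema5a at 10.9 and 10.9 CPM. Slit2 stood at 75.2 CPM (48.2 to 112, 24 UMIs) in HKO but at 28.3 CPM (5.84 to 82.8) from 3 UMIs in WT. Sema6a, led by endothelial-like nuclei, was also at 147 CPM (108 to 196, 47 UMIs) and 312 CPM (215 to 438, 33 UMIs) here. Endothelial markers in cholangiocyte-like nuclei were at a median of 10.5% and 7.55% of their own level. Sema3e reached 2-fold over the main classes too, on 3 UMIs in HKO and 1 in WT, too few to describe. Sox9, itself a marker of this class, had 5 and 2 UMIs in it.

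**Figure D2:**
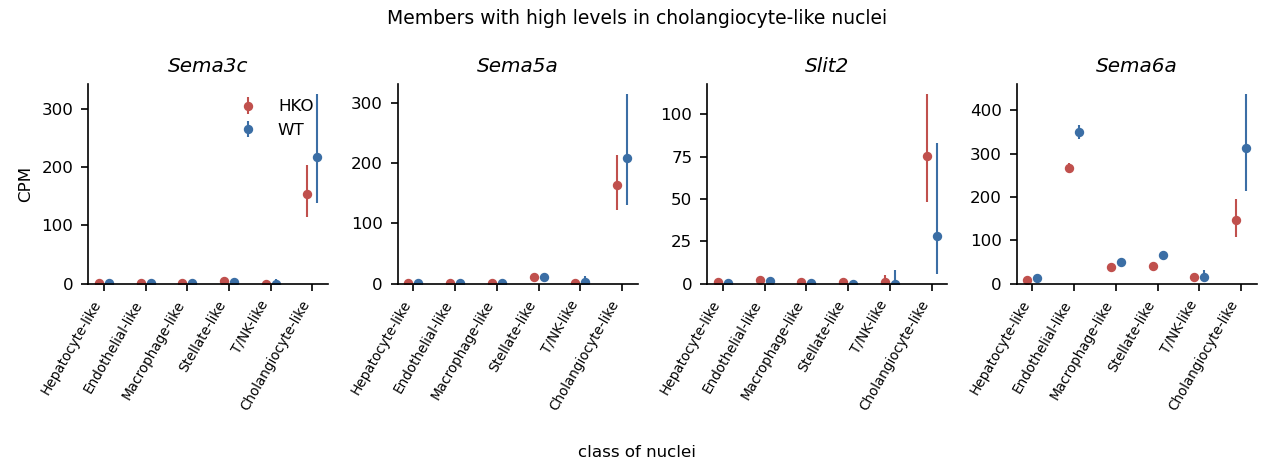
CPM of Sema3c, Sema5a, Slit2 and Sema6a in 5 main classes and in cholangiocyte-like nuclei (points, HKO and WT side by side), with exact 95% intervals of the counts. Sema3c, Sema5a and Slit2 lie near 0 in the main classes and are high in cholangiocyte-like nuclei, and Sema6a is high in endothelial-like and in cholangiocyte-like nuclei.

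In hepatocyte-like nuclei, 1 ligand and 1 receptor differed past 2-fold between HKO and WT, and the call of the receptor was not kept under every setting. For the 16 members with a mean of at least 10 CPM, ratios were taken as log2 of HKO over WT after adding 0.5 CPM, and called at 1 or -1. One member was higher in HKO, Robo1, and 3.11% of the 8416 genes compared were. One member was lower, Efna1, and 4.94% of the genes compared were. With 1 of 16 members each way, these counts do not set the members apart from all genes. The median ratio of the 16 members was -0.13 and that of all genes compared 0.18.

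Efna1, the ephrin-A1 ligand of EphA receptors, was at 56.3 CPM in HKO from 1976 UMIs and at 208 CPM in WT from 9707 UMIs. HKO was thus 3.69-fold lower (3.52 to 3.88), a log2 ratio of -1.87. The gene (ENSMUSG00000027954) lies on the minus strand of chromosome 3, 89271733 to 89281142 in GRCm38. The difference was of like size in each main class, 3.33-fold in endothelial-like, 4.19-fold in macrophage-like, 3.58-fold in stellate-like and 3.36-fold in T/NK-like nuclei, and hepatocyte RNA was present in them all. Epha2, a receptor for ephrin-A1, was the other way around, at 31.0 CPM in HKO against 15.3 CPM in WT (2.03-fold, 1.85 to 2.24), with a log2 ratio just under the size used. Epha1 was 1.37-fold higher in HKO (1.27 to 1.48), at 38.9 and 28.3 CPM, and overlaps Zyx on the other strand. Efna5 was 1.71-fold higher (1.64 to 1.78).

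Robo1 (ENSMUSG00000022883, chromosome 16, 72308306 to 73046095, plus strand, GRCm38) was at 303 CPM in HKO from 10649 UMIs and at 144 CPM in WT from 6734 UMIs. HKO was 2.10-fold higher (2.04 to 2.17), a log2 ratio of 1.07. With TMM factors (trimmed mean of M values, in edgeR) the ratio was 0.92 and with median ratio size factors 0.94, so that the call ended under both. It also ended with a clustering resolution of 1, where the ratio was 0.85, the lowest of the settings tried. That setting named fewer nuclei hepatocyte-like, 4507 in HKO and 7591 in WT, against 7961 and 10894 in the main setting. The TMM and median ratio factors moved every ratio in hepatocyte-like nuclei by -0.15 and -0.13. The other main classes again differed alike, by 1.95-fold in endothelial-like, 2.01-fold in macrophage-like, 1.72-fold in stellate-like and 1.92-fold in T/NK-like nuclei.

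The other members of this comparison lay between. Plxna2 was equal within counting error, at 148 and 147 CPM (1.01-fold, 0.972 to 1.04). Sema4g was 1.14-fold (1.11 to 1.17) and Sema4a 1.10-fold higher in HKO, the latter turning to a log2 ratio of -0.02 with TMM factors. Plxnb1 and Plxnb2 were 1.17-fold and 1.43-fold lower in HKO. Sema6a and Plxnc1 were 1.72-fold and 1.61-fold lower, at 7.78 against 13.4 CPM and 9.95 against 16.0 CPM. Both were led by endothelial-like nuclei, and the share of endothelial markers met in hepatocyte-like nuclei was lower in HKO as well. The 15 hepatocyte markers summed to between 16535 and 17189 CPM in the 3 zone groups of HKO hepatocyte-like nuclei and to between 35222 and 36831 CPM in those of WT. The part of that difference in the members' ratios was not tested, and the group cannot be told apart from the library.

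Below the 10 CPM limit, and so outside the count, 3 members also passed the size. The share of all genes below the limit that did so was not counted. Sema5b was at 12.8 CPM from 450 UMIs in HKO and 4.67 CPM from 218 UMIs in WT hepatocyte-like nuclei, 2.75-fold (2.33 to 3.24). Unc5b was at 3.56 and 0.856 CPM from 125 and 40 UMIs, 4.16-fold (2.89 to 6.10), a gene whose level was higher in stellate-like nuclei of both libraries. Efna3, another ephrin-A ligand, was lower in HKO like Efna1, at 0.513 and 2.08 CPM from 18 and 97 UMIs, 4.05-fold (2.43 to 7.12). Efna3 overlaps Gm15998 on the opposite strand. Gm15998 was among the 10 leading genes of a hepatocyte-like cluster with 8154 WT and 4 HKO nuclei. Its part in the Efna3 ratio was not tested.

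**Figure D3:**
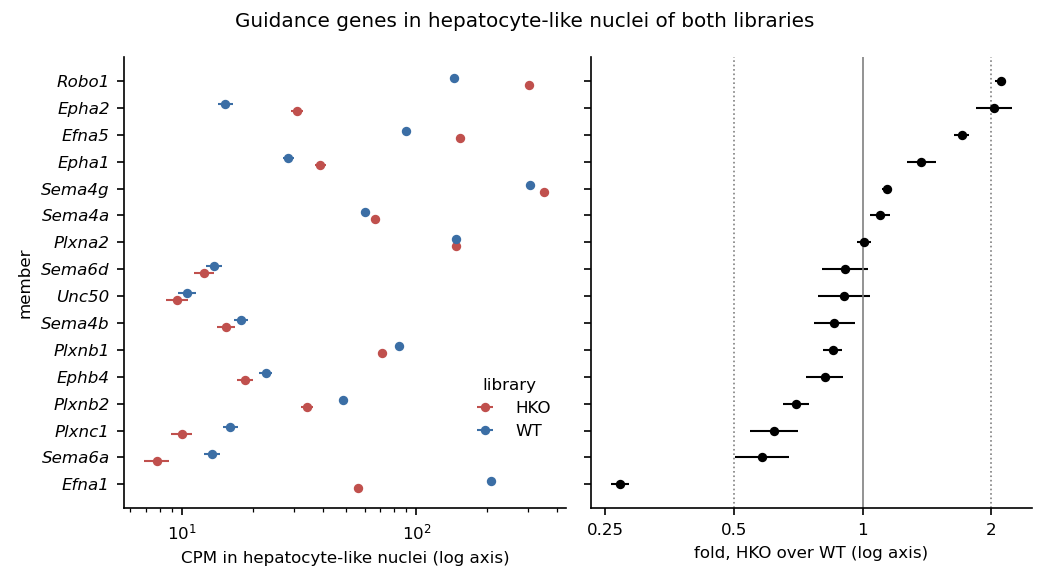
Left, CPM of the 16 members compared in hepatocyte-like nuclei (log axis, HKO and WT), and right, the fold of HKO over WT (log axis, dotted lines at 0.5 and 2), both with exact 95% intervals of the counts. Efna1 lies apart at the low end, and Robo1 and Epha2 at the high end near 2.

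In the other classes no member within the limits of the comparison passed 2-fold. These limits were a mean of at least 50 CPM that was also above the mean in hepatocyte-like nuclei. In endothelial-like nuclei 0 of 9 members were higher (0.757% of the 1718 genes compared) and 0 lower (3.73%). In stellate-like nuclei the counts were 0 and 0 of 10 members (1.28% and 6.11% of 1638 genes). In macrophage-like nuclei the only member compared, Sema6d, was 1.38-fold higher in HKO, and 1.3% and 1.98% of 1919 genes were called higher and lower. In T/NK-like nuclei the only one was Sema4a, at 67.5 CPM in HKO against 70.1 CPM in WT, where 1.62% and 5.67% of 1853 genes were called.

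Outside these limits, members with at least 50 UMIs in a class gave 90 further ratios over the 4 other classes, of which 12 were past 2-fold higher in HKO and 4 past it lower. The share of all genes past 2-fold under the same terms was not counted, so these counts are not read as a trait of the members. The 4 lower ones were all Efna1, given above. Epha4, an Eph receptor led by stellate-like nuclei but under the CPM limit, was 3.25-fold higher in HKO there (2.11 to 5.17), from 119 and 26 UMIs. Unc5b and Sema5b were higher in stellate-like nuclei as well, 2.11-fold and 2.64-fold, and in endothelial-like nuclei, 3.01-fold and 2.32-fold. Both were also the members higher in HKO hepatocyte-like nuclei below the limit. Endothelial-like nuclei further had Sema3a, 3.82-fold higher (1.88 to 8.77) from 57 and 9 UMIs, and Epha2, 2.12-fold higher (1.64 to 2.78). Macrophage-like nuclei had Plxnd1, 2.92-fold (2.26 to 3.82), Robo2, 2.98-fold (2.14 to 4.23), Efnb2, 2.16-fold, and Robo1. In T/NK-like nuclei Efna5 was 2.20-fold higher (1.46 to 3.43), with 146 and 28 UMIs. Of the ratios named here as higher, those of Epha4 and Unc5b in stellate-like nuclei came from the main class where the gene was highest. In each other case another main class was higher in both libraries. Sema3a in endothelial-like nuclei was at 27.9% and 7.38% of its stellate-like level, and Unc5b at 21.1% and 14.8%. The part of RNA from other classes in these ratios was not tested.

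Of the members led by stellate-like nuclei, Robo2 was 1.49-fold higher in HKO (1.39 to 1.59) and Ntn1 1.48-fold lower (1.30 to 1.68). Sema6d, Epha3, Sema3d, Efna5 and Epha7 had intervals of the fold that hold 1. In endothelial-like nuclei Sema6a was 1.31-fold lower in HKO (1.23 to 1.39) and Plxnc1 1.16-fold lower (1.08 to 1.24). Plxnd1 was 1.30-fold higher (1.14 to 1.48), and Plxna4 and Ntn4 were both 1.22-fold higher (1.09 to 1.37 and 1.06 to 1.41). The intervals of Ephb4, Sema6d and Plxna2 hold 1.

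Hepatocytes differ along the line from the portal tract to the central vein. Hepatocyte-like nuclei were ranked within each library by a score over 18 pericentral and 15 periportal marker genes and cut into 3 groups of equal size. Of 12 zone genes left out of the score, 12 lay on their known side in both libraries, by direction alone. Not all reached the 1.5-fold size used below. Apoa4 was 1.17-fold (0.968 to 1.42) and 1.06-fold (0.957 to 1.17) higher at the portal end. Gstm1 was 1.10-fold (0.989 to 1.21) higher at the central end in HKO. A group is a range of the score and no cell type, and 11.7% of HKO and 10.7% of WT nuclei lay within 0.05 of a boundary. A member was called where the outer groups differed at least 1.5-fold the same way in both libraries. Of the 16 members compared, 1 was pericentral (1.252% of the 8386 genes compared) and 1 periportal (1.31%).

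Plxna2, the plexin that binds Sema6a, was the periportal member. In HKO it was at 221 CPM in the periportal group, 145 CPM in the middle and 74.6 CPM in the pericentral group, 2.96-fold higher at the portal end (2.74 to 3.2). In WT the levels were 252, 125 and 58.2 CPM, 4.33-fold (4.02 to 4.65). Over 10 groups of equal size it went from 234 to 41.3 CPM in HKO and from 300 to 36.8 CPM in WT. The gene (ENSMUSG00000026640) lies on chromosome 1, 194618218 to 194816869, plus strand, and 4 other gene models overlap it on the same strand. In endothelial-like nuclei, where it was higher, its level in the portal and central groups was 254 and 231 CPM in HKO and 221 and 221 CPM in WT.

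Robo1 was the pericentral member. It was at 436 CPM in the pericentral group of HKO, 281 CPM in the middle and 200 CPM in the periportal group, 2.18-fold higher at the central end (2.08 to 2.29). In WT it was at 201, 129 and 105 CPM, 1.91-fold (1.80 to 2.03). Each zone group had a higher Robo1 level in HKO than in WT, and the lowest HKO group was near the highest WT group. Among 10 groups the most pericentral one stood apart, at 568 CPM in HKO against 284 CPM in WT.

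The promoters of Plxna2, Robo1 and Efna1 are shown because these members carry the zone and library differences. Each is the 250 bases before a start site, 5' to 3' on the gene's strand, from RefSeq on GRCm38.p6, with CG pairs in capitals. Plxna2 is chr1:194619579-194619828 on the plus strand, Robo1 chr16:72662899-72663148 on the plus strand, and Efna1 chr3:89280952-89281201 on the minus strand. The Robo1 stretch lies far inside the gene span given above, which starts at 72308306, and so belongs to an internal start site. Bases before the start of that span are not shown. The Plxna2 stretch also lies inside its span, which starts at 194618218. The Efna1 stretch lies partly inside its span, which ends at 89281142.
Plxna2: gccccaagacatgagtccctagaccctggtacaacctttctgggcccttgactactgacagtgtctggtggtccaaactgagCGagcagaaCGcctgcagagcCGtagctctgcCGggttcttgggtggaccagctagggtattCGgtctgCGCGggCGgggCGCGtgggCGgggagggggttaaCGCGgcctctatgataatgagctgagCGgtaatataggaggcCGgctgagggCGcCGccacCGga
Robo1: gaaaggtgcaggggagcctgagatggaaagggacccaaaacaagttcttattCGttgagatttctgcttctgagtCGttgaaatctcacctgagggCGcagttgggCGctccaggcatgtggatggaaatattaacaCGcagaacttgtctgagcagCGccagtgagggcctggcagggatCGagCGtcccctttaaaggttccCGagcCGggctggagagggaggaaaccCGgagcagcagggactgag
Efna1: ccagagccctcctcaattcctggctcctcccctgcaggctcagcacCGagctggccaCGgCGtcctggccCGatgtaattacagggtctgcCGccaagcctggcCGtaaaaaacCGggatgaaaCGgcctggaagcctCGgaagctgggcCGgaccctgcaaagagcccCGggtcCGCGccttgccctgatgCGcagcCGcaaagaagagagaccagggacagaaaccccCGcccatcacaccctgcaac

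The Plxna2 stretch has 18 CG pairs and 62.8% G and C bases, the Robo1 stretch 11 and 56.0%, and the Efna1 stretch 16 and 64.8%. The median over 32851 RefSeq promoters of this length was 6 pairs and 52.4%, and over the 75 promoters of 59 guidance genes 15 pairs and 64.4%. CTTTGA, the core letters of a TCF/LEF site, the factors that read Wnt signals, was searched on both strands. It is in none of the 3 stretches, in 3 of the 75 member promoters (4%) and in 13.8% of all promoters. The E-box CACGTG, which reads the same on both strands, is also in none of the 3, in 5.33% of member promoters and in 6.02% of all. The 3' counts do not tell which start site was used, and RefSeq gives 2 for Efna1.

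The other members compared changed less with zone. In the periportal group Plxnb1 was higher by 1.22-fold (1.11 to 1.35, HKO) and 1.36-fold (1.26 to 1.48, WT). Sema4g was 1.13-fold higher there in each. Efna1 was 1.38-fold (1.23 to 1.54) and 1.15-fold higher in the pericentral group. The difference between the libraries in Efna1 was thus present in every zone group, with 47.2 to 65 CPM in HKO and 194 to 223 CPM in WT.

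**Figure D4:**
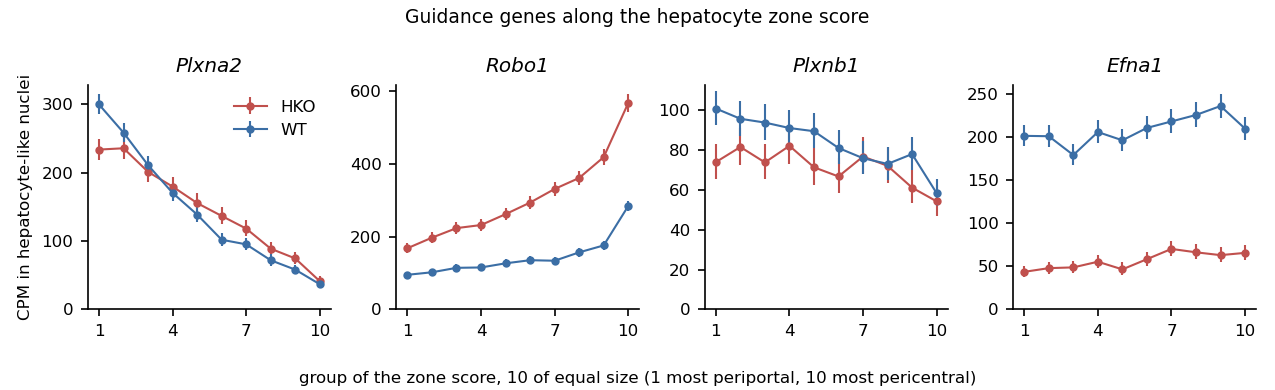
CPM of Plxna2, Robo1, Plxnb1 and Efna1 in 10 groups of hepatocyte-like nuclei of equal size, ordered from most periportal (1) to most pericentral (10), for HKO and WT with exact 95% intervals of the counts. Plxna2 falls and Robo1 climbs toward the central end in both libraries, while the HKO and WT curves of Efna1 stay apart over the whole range.

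Endothelial-like nuclei were ranked in the same way by 6 central and 6 portal and arterial markers. With few markers the ranking was coarse, and 39.9% of HKO and 29.7% of WT nuclei lay within 0.05 of a boundary. Of 14 members with at least 50 CPM, 2 were central by the 1.5-fold rule (0.256% of the 3901 genes compared) and 0 portal (0% of genes). The endothelial markers summed to 3888 CPM in the central, 2188 CPM in the middle and 3149 CPM in the portal group of HKO, and to 3456, 2105 and 2525 CPM in WT. The part of this in the members' levels was not tested.

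Plxnc1 was at 354 CPM in the central, 152 CPM in the middle and 217 CPM in the portal group of HKO, 1.63-fold higher at the central than at the portal end (1.47 to 1.81). In WT it was at 380, 207 and 238 CPM, 1.60-fold (1.40 to 1.82). Ephb4, the venous Eph receptor, was at 84.2 and 51.4 CPM in the central and portal groups of HKO, 1.64-fold (1.32 to 2.04), and at 88.6 and 58.0 CPM in WT, 1.53-fold (1.17 to 2.01). Both were lowest in the middle group, as the summed endothelial markers were. Neither call was kept among nuclei of at least 2000 UMIs or without the 5% of barcodes with most UMIs, where HKO fell under the 1.5-fold limit. Plxnc1 was then at 1.44-fold and 1.60-fold among nuclei of at least 2000 UMIs and at 1.47-fold and 1.58-fold without the 5%. Ephb4 was at 1.22-fold and 1.62-fold in the first setting, and in the second just under the limit in HKO and at 1.72-fold in WT.

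Sema3d, under the 50 CPM limit and so not called, had a wider gap than Plxnc1 and Ephb4. It was at 41.1 CPM in the central group, 11.5 CPM in the middle and 15.3 CPM in the portal group of HKO, from 98, 40 and 44 UMIs, 2.69-fold from end to end (1.86 to 3.93). In WT it was at 56.8, 15.1 and 13.8 CPM, 4.13-fold (2.58 to 6.87). Ntn1, also under the limit, was 2.81-fold (1.24 to 6.98) and 15.8-fold (2.41 to 670) higher in the central group. Its central and portal groups held 21 and 9 UMIs in HKO and 14 and 1 in WT. Sema6a was 1.19-fold and 1.33-fold, Sema6d 1.40-fold and 1.55-fold and Plxna4 1.35-fold and 1.53-fold higher in the central group. Ntn4 went the other way, 1.34-fold (1.09 to 1.65) and 1.54-fold (1.14 to 2.10) higher in the portal group. Efnb2, the arterial ephrin, was 1.76-fold higher in the portal group of HKO (1.15 to 2.75) and 1.23-fold in WT, where the interval (0.643 to 2.39) holds 1.

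**Figure D5:**
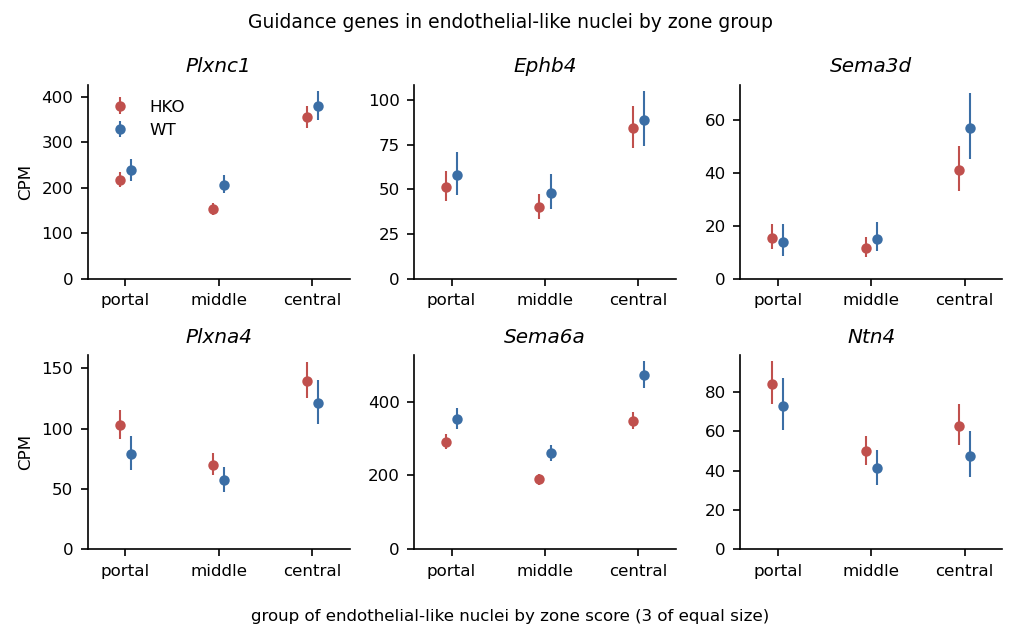
CPM of Plxnc1, Ephb4, Sema3d, Plxna4, Sema6a and Ntn4 in the portal, middle and central groups of endothelial-like nuclei (HKO and WT, exact 95% intervals of the counts). Sema3d is high in the central group alone, Plxnc1, Ephb4, Plxna4 and Sema6a are highest in the central and lowest in the middle group, and Ntn4 is highest in the portal group.

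Other genes of the pathway were taken from a list of 73, of which 72 were found in the tables and 65 had at least 50 UMIs. Endothelial-like nuclei led 4 of the 65 (1.4% of all genes), stellate-like nuclei 4 (3.38%), T/NK-like nuclei 1 (1.37%) and no main class 56. The 4 in endothelial-like nuclei were the co-receptor Nrp2 at 129 CPM in HKO against 132 CPM in WT, the VEGF receptor Kdr, Srgap1, an intracellular protein that binds Robo, at 140 and 133 CPM, and Dpysl3. Those in stellate-like nuclei were Dpysl2, an intracellular mediator of semaphorin signals, at 57.9 and 60.7 CPM, Enah, Gpc3 and the netrin receptor Dcc, at 3.98 and 9.47 CPM. Ntn1, Unc5a, Unc5b and Dcc were thus all led by stellate-like nuclei, Dcc on 83 UMIs over both libraries, while Ntn4 was led by endothelial-like nuclei. Neo1, a further receptor on the list, had no leading class. It was at 105 and 78.2 CPM in stellate-like nuclei and at 105 and 80.1 CPM in hepatocyte-like nuclei.

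Of the 42 pathway genes compared in hepatocyte-like nuclei, 1 was higher in HKO (3.11% of all genes compared) and 2 were lower (4.94%), shares near those of all genes. The one higher was Igdcc4, a relative of DCC, at 19.9 against 7.77 CPM. Those lower were Nrp1, the co-receptor of class 3 semaphorins, at 290 against 685 CPM (2.36-fold, 2.31 to 2.41), and Tiam2, an activator of Rac, at 11.3 against 33.5 CPM (2.96-fold, 2.65 to 3.32). By zone, 2 of 42 were pericentral (1.252% of all genes compared) and 3 periportal (1.31%). Nrp2 was pericentral like Robo1, 2.04-fold in HKO and 2.27-fold in WT, and so was Igdcc4, 1.78-fold and 2.21-fold. Tiam2, Nck2 and Farp1 were periportal like Plxna2, with a pericentral level 0.327 and 0.252 times the periportal one for Tiam2, 0.529 and 0.428 times for Nck2 and 0.662 and 0.643 times for Farp1.

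The members not described above had no leading class. Sema3f was highest in endothelial-like nuclei at 22.5 and 20.9 CPM, 3.12-fold and 1.92-fold the stellate-like level. Sema4b reached 32.6 CPM and Plxna1 14.2 CPM in the main class where each was highest (stellate-like, HKO), and Sema4c 14.6 CPM (macrophage-like, HKO). Sema6b and Efnb1 stayed under 10 CPM in every main class, and Epha6 and Sema3b under 2 CPM. The members with few counts are given by their range. The 24 genes of the rule under 50 UMIs had 0 to 48, with Plxna3 at 48, Unc5cl at 46 and Efnb3 at 41 just outside, and 3 of them had none. Just inside were Sema3b with 62, Sema3e with 74 and Epha6 with 85 UMIs. Across the 48 members described, UMIs and gene length were unrelated (Spearman's correlation -0.05, a description across genes that share libraries), with spans of 8.99 to 952 kb.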

How the data were processed

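The deposited files hold whole-number UMI counts per gene and barcode, not normalized, as the values show. Per the file headers the counts come from Cell Ranger 5.0.0. The submitters' processing notes list GRCm38, Seurat 3.2.0 and STAR without saying what each was for. The sources used here do not say how nuclei were isolated. The group of each library came from its title, as the genotype field gives an age. A barcode was kept with 500 genes or more and less than 10% mitochondrial counts, 14902 in HKO and 14515 in WT. No doublet caller was run, and an alternative left out the 5% of barcodes with most UMIs. Clustering used 2000 variable genes without the members, 30 principal components, 15 neighbours and Leiden (scanpy 1.11.5, leidenalg 0.10.2, resolution 0.5). A cluster took a name other than hepatocyte-like with 3 or more, and at least 0.5, of that class's markers 2-fold above the other barcodes, a limit set after the data were seen. Of the rest, clusters with 3 or more hepatocyte markers above their level in the named classes of the same library were hepatocyte-like, which 5 to 15 of the 15 markers were. Clusters 8 and 13, with 5 and 7, were led by cell division genes. The clusters left unnamed were 2 led by mitochondrial genes with hepatocyte markers (695 HKO and 531 WT nuclei), 1 with dendritic and neutrophil markers (263 and 52) and 10 of a single nucleus each. Most hepatocyte-like nuclei were in clusters 1, 10 and 13 for HKO and 0, 4 and 8 for WT, endothelial-like in 2 and 5, macrophage-like in 3 and 7, stellate-like in 6 and 11 and T/NK-like in 15 and 19. Counts were summed per class and library. Intervals are exact Poisson, or exact conditional for folds, at 95%. TMM factors came from edgeR 4.0.16. The calculation was checked on simulated counts. Members, lists, floors and the rule for named genes (the 4 highest members led by each class, members past the ratio or zone size, and their partners) were chosen with earlier results of these data known. Further members are given by family, a choice made after their values were seen. Gene positions are from GENCODE vM21, which held 70 of the 72 identifiers.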

Additional observations from a re-analysis of the deposited data

How the results depend on the processing

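Each count of members was recomputed under other settings, with 1 library per group and no test. For hepatocyte-like nuclei the members higher in HKO numbered 0 with a clustering resolution of 1, with TMM factors and with median ratio size factors, 2 with the unnamed clusters added, and 3 with a size of 1.5-fold and with a floor of 1 CPM. Those lower numbered 3 with 1.5-fold and 2 with a floor of 1 CPM. In the other classes 2 were higher and 1 lower with 1.5-fold, and 5 and 1 with a floor of 10 CPM. Endothelial-like nuclei led 9 members without the top 5% of UMIs, 3 with a class fold of 3 and 10 with 1.5, and macrophage-like nuclei 0 with a minimum of 200 UMIs. The pericentral count in hepatocyte-like nuclei was 0 with a zone fold of 2. In endothelial-like nuclei the central count was 0 without the top 5% of UMIs, among barcodes of at least 2000 UMIs and with a zone fold of 2, and 4 with the lowest zone fold tried, where 1 member was portal. Fewer or more members passing follows from the changed limit itself for folds, floors and minimums. For the other settings the cause was not tested. The other 112 values were the same or within 1.5 times, among them all counts without barcodes found in both libraries, a setting chosen after seeing the data. Efna1 stayed lower in HKO, with a log2 ratio of -2.09 to -1.84 over 9 settings, and Robo1 higher, with 0.85 to 1.09. No paired analysis was possible with 1 library per group. Depth limited the small classes, of which cholangiocyte-like nuclei had 32 in WT.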

Other observations

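Plxnc1 and Sema4d were also present in nuclei of blood cell types outside the comparisons. In B-like nuclei Plxnc1 was at 101 CPM (75.5 to 133) from 52 UMIs in HKO and 84.7 CPM from 14 UMIs in WT. Endothelial markers there were at a median of 14.3% and 17.3% of their endothelial-like level. In dendritic-like nuclei of HKO it was at 76.3 CPM (48.4 to 114) from 23 UMIs. In the unnamed cluster with dendritic and neutrophil markers, Plxnc1 was at 58.7 CPM (42.6 to 78.8) in HKO against 55.4 CPM (29.5 to 94.8) in WT, and Sema4d, known from lymphocytes, at 41.3 CPM (28.1 to 58.7) and 25.6 CPM (9.39 to 55.7). B-like nuclei held Sema4d at 38.9 CPM (23.8 to 60.1) in HKO, near the T/NK-like level, and 3 Sema4d UMIs in WT. These classes held too few WT nuclei, 43 B-like and 52 in the unnamed cluster, to compare HKO with WT.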
